A study of Mus musculus with 24 samples.

Results

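Untreated cells of clone 1CF10 were compared with untreated cells that carry an empty vector (EV), over every expressed gene. Both are lines of ID8, a mouse ovarian cancer cell line of ovarian surface epithelium origin, and per the labels both lack Trp53, a tumour suppressor, and Brca2, which acts in DNA repair. Clone 1CF10 also carries a CRISPR knockout of Ifnar1, so that Trp53 and Brca2 loss is shared by the compared groups and Ifnar1 loss is the labelled difference between them. The comparison rests on 6 of the 24 libraries of the series, 3 of 1CF10 and 3 of EV, which were chosen by their labels alone. Used beside them are untreated libraries of the second Ifnar1 knockout clone, 2CD7, and of untransfected cells (WT), and libraries of 1CF10 and EV after 3 h of interferon beta at 10000 IU/ml. All cells were plated at 50000 per well 24 h before treatment or harvest. The series holds 8 groups of 3 libraries each. Within a group they are technical replicates per the labels, handled on the same date, so a p-value here measures the spread between such libraries. Clone 1CF10 is 1 clone, and a trait of the clone and an effect of the knockout cannot be told apart in this comparison alone. In these bulk samples, fewer cells that express a gene and less RNA per cell cannot be told apart either.

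Type I interferons act through a receptor of the chains Ifnar1 and Ifnar2, whose kinases activate transcription factors of the Stat family. With Irf9 these form a complex that binds interferon-stimulated response elements (ISREs) in the promoters of antiviral genes. Cells that meet no virus keep a low level of many of these genes, which in several tissues is known to depend on constitutive interferon and on unphosphorylated Stat proteins. ISREs are shown here because antiviral genes were the gene list with the lowest median in 1CF10 against EV, and Oas1g, Oas1a and Isg15 of that list have matches close to their start. The sequences are the 150 bases before the RefSeq gene start on GRCm38.p6, 5′ to 3′ on the gene's strand, and the capitals mark the match. For the ISRE the search was for GAAA followed, after any 2 bases, by a further GAAA, and for the sterol regulatory element (SRE) of cholesterol genes it was for TCACNCCAC. Both strands were searched from 250 bases before to 50 bases after the start, and matches may overlap each other.
Oas1g, chr5:120887614-120887763, minus strand, overlapping ISRE matches in capitals: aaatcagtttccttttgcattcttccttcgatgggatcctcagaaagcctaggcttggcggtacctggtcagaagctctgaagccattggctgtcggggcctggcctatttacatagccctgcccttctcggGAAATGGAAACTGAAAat
Oas1a, chr5:120907526-120907675, minus strand, overlapping ISRE matches in capitals: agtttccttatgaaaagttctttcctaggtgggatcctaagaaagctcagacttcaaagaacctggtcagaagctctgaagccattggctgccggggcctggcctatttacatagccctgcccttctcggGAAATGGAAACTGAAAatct
Isg15, chr4:156200819-156200968, minus strand, overlapping ISRE matches in capitals: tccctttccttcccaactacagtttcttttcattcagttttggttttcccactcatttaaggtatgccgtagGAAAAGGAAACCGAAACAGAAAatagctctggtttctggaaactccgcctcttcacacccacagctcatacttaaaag
Hmgcs1, chr13:119690201-119690350, plus strand, SRE match in capitals: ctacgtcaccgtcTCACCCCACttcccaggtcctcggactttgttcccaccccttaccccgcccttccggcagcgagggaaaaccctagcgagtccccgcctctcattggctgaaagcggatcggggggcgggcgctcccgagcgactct
The ISRE letters begin 18 and 12 bases before the start of Oas1g and 20 and 14 bases before that of Oas1a, and 3 matches lie 78 to 66 bases before the start of Isg15. They were present in 3.44% of all 32851 promoter windows. Counted by gene, 3.71% of the 8163 tested genes with a window held them in at least 1 window. Among the antiviral effector genes on the list used below, 10 of 19 that were lower in 1CF10 and had a window held them (52.6%), and so did 9 of 22 that were not called lower (40.9%). The SRE letters were in 1.24% of all windows and, by gene, in 1.27% of tested genes with a window. Of 13 cholesterol and fatty acid genes that were lower in 1CF10 and had a window, 1 held them, Hmgcs1.

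The 3 libraries of 1CF10 held 2309498, 2799092 and 3097331 unique molecular identifiers (UMIs), and those of EV held 2490876, 2465286 and 2458552. At least 1 UMI was counted for 20625 of the 24614 genes in the table, and 11698 genes passed the filter on low counts and were tested. Levels are given as CPM, the UMI count of a gene relative to the TMM-scaled total of its library. Each molecule gives 1 tag at the 3′ end of the mRNA, so levels are not divided by transcript length. Ifnar1 had 10.99, 5.98 and 9.16 CPM in 1CF10, against 11.1, 11.47 and 13.03 CPM in EV (log2 fold change -0.46 ± 0.25, adjusted p = 0.292). The 1CF10 libraries lay just under those of EV, and the difference was not called. Tags from the 3′ end need not cover the edited part of a gene, so they check neither this knockout nor those of Trp53 (log2 fold change 0.37 ± 0.20, adjusted p = 0.285) and Brca2 (log2 fold change -0.03 ± 0.15, adjusted p = 0.944). Ifnar2, the other receptor chain, was at 15.6, 16.2 and 15.2 CPM in 1CF10, against 17.51, 9.42 and 11.4 CPM in EV (log2 fold change 0.29 ± 0.22, adjusted p = 0.490). Here the libraries of the lines overlapped. Of 9 markers of mesothelium and ovarian surface epithelium, 7 were expressed well enough to be tested, Lrrn4 and Krt7 were at 0 in some of the libraries, and the sum of all was 2504 to 2511 CPM in 1CF10 and 2599 to 2730 CPM in EV. Of 12 leukocyte markers 6 had values here, which summed to at most 0.352 CPM in 1CF10 and 0.410 CPM in EV, with Cd79a, Csf1r and Cd74 at 0 in all 6 libraries. Of 7 endothelial markers 4 had values, which summed to at most 0.704 CPM in 1CF10 and 1.23 CPM in EV, with Emcn at 0. Of 4 granulosa markers Cyp19a1 had values, and it was at 0. Of 6 stromal fibroblast markers 3 had values. Pdgfra was at 0, and the sum of 12.7 to 22.5 CPM in 1CF10, against 4.89 to 7.37 CPM in EV, came mainly from Dcn. Wider marker lists, used below, gave higher sums. For leukocytes these were 14.5 to 21.1 CPM in 1CF10 and 18.3 to 24.8 CPM in EV. For endothelium they were 28.5 to 33.2 CPM and 23.2 to 24.6 CPM. For fibroblast, stroma and granulosa markers, Col1a1 among them, they were 177 to 238 CPM in 1CF10 and 69.6 to 77.0 CPM in EV.

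A total of 421 genes were higher in 1CF10 than in EV and 791 were lower, at an adjusted p below 0.05 of edgeR's quasi-likelihood F test. These are 3.6% and 6.76% of the 11698 tested genes, and 10.4% in either direction. Counts given for gene lists below are to be set against these shares. Most differences were small. The median absolute log2 fold change was 0.51 among the genes that were higher and 0.54 among those that were lower, and 245 and 437 of them lay below 1.5-fold. At least 2-fold differences were called for 84 genes that were higher (0.718%) and 134 that were lower (1.15%). The genes that were higher took 5.33% of UMIs in 1CF10 and 4.04% in EV, and those that were lower took 10.8% in 1CF10 and 14.1% in EV. The 3 libraries of 1CF10 all lay beyond the 3 of EV for 406 of the 421 and 758 of the 791 called genes, while over all tested genes such a separation was seen upward for 12.3% and downward for 14.0%. In data simulated from these libraries over 11529 genes, the test found 52.2% of the simulated 1.5-fold changes, 82.1% at 2-fold and 97.0% at 4-fold. Of its 163 calls 9 were false. The simulation left out gene-specific spread and other differences between groups, so these rates need not carry over to the real libraries. With 1 library left out at a time, 593 of the 1212 calls held in all 6 fits, 163 of the genes that were higher and 430 of those that were lower, and all 1212 kept their direction. Log2 fold changes below are 1CF10 minus EV with their SE, with 3 libraries in each group. For every called gene below that is given library by library, the 3 libraries of 1CF10 lay all above or all below the 3 of EV. A named gene that lost its call with 1 library left out is given at the end of its paragraph, with the libraries concerned.

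**Figure D1:**
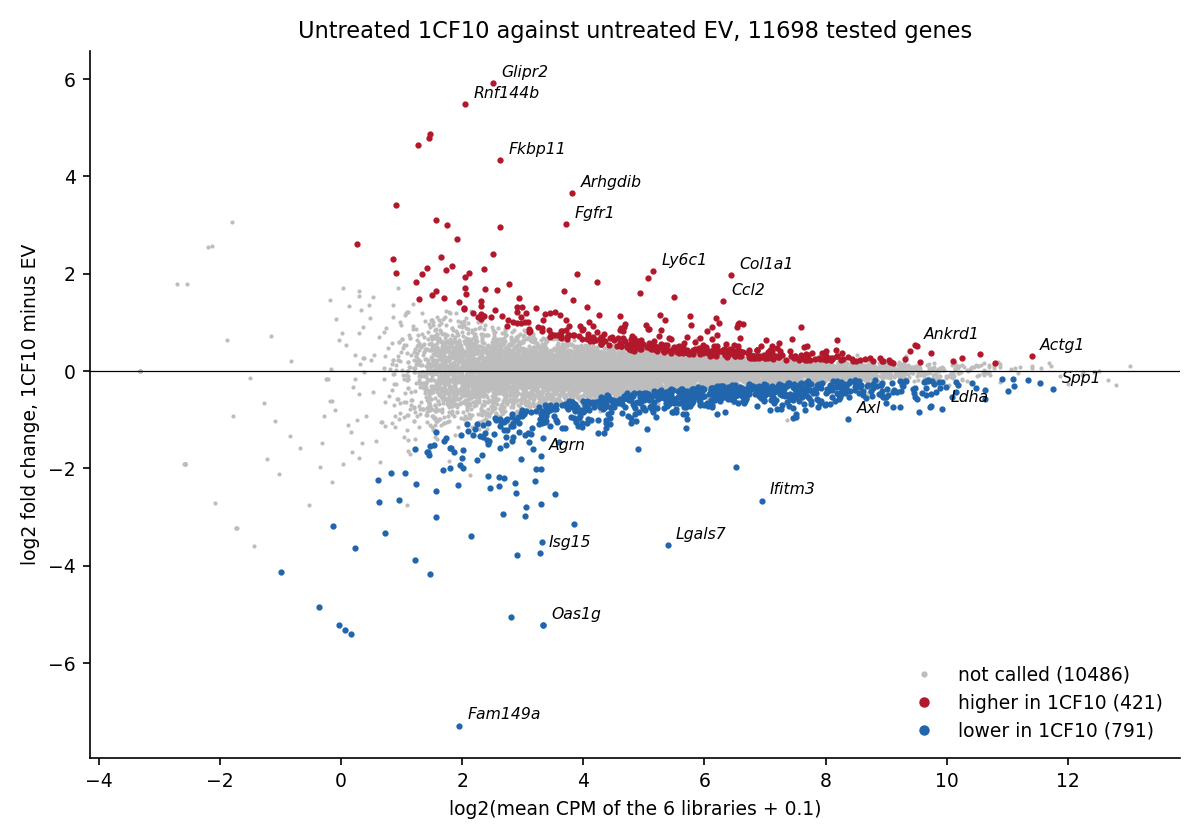
Log2 fold change of untreated 1CF10 minus untreated EV (y axis) against the log2 of the mean CPM of the 6 libraries plus 0.1 (x axis) for the 11698 tested genes, 1 point a gene, with genes called higher in red and lower in blue. The 421 genes that were higher and 791 that were lower spread over the whole range of levels, and the steepest differences sit among genes of low to middle level, Glipr2 at the top and Fam149a at the bottom.

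Some genes were close to absent in 1CF10, or far lower there than in EV. Fam149a (ENSMUSG00000070044, chr8:45336717-45382291, GRCm38) had 0 UMIs in all 3 libraries of 1CF10, against 8.36, 5.73 and 8.55 CPM in EV. With the floor set at 3 UMIs for the whole line it was at least 21.1-fold lower (adjusted p = 1.37e-09), and the 3 WT libraries held 3.09 to 4.48 CPM and those of 2CD7 1.17 to 3.93 CPM. Smarca1, the ATPase of an ISWI chromatin remodelling complex, was likewise at 0 UMIs in 1CF10, against 0.796, 2.46 and 2.44 CPM in EV, at least 5.27-fold lower (adjusted p = 0.00101). It stood at 4.70 to 5.11 CPM in 2CD7 and 4.48 to 10.1 CPM in WT, so that 1CF10 was the lowest of the 4 lines. Wnt7b, a secreted Wnt ligand, had 2 UMIs in 1CF10 and 38 UMIs in EV, a ratio of EV over 1CF10 of 21.46 (exact 95% counting interval 5.55 to 184) (adjusted p = 6.51e-06). Pimreg, a regulator of mitotic chromosome segregation, had 0, 1.06 and 0.316 CPM in 1CF10, against 18.7, 18.4 and 21.6 CPM in EV (log2 fold change -5.22 ± 0.41, adjusted p = 1.98e-15). Every 1CF10 library was thus far below the lowest EV library. Lgals7, which encodes a galectin of stratified epithelia, was at 6.76, 5.98 and 6.64 CPM in 1CF10, against 58.5, 89.7 and 83.9 CPM in EV (log2 fold change -3.57 ± 0.19, adjusted p = 1.83e-18). The 2CD7 libraries held 103 to 119.8 CPM of it and those of WT 121 to 159 CPM. Prodh, which starts proline breakdown in mitochondria, was at 1.69, 1.76 and 1.90 CPM in 1CF10, against 11.9, 14.7 and 16.7 CPM in EV (log2 fold change -2.98 ± 0.34, adjusted p = 9.53e-10). Here EV was the highest of the 4 lines. The 2CD7 libraries lay between EV and 1CF10, at 8.36 to 8.64 CPM, and those of WT held 1.52 to 4.80 CPM. R3hdml was at 0.423, 0.352 and 1.26 CPM in 1CF10, against 9.95, 8.60 and 5.29 CPM in EV (log2 fold change -3.39 ± 0.48, adjusted p = 2.19e-07).

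In the other direction, Glipr2, a lipid-binding protein of the Golgi membrane (ENSMUSG00000028480, chr4:43957401-43979118), had 10.1, 10.6 and 12.3 CPM in 1CF10, against 0, 0 and 0.407 CPM in EV. With 93 UMIs in 1CF10 and 1 UMI in EV, the ratio of 1CF10 over EV was 82.3 (exact 95% counting interval 14.4 to 3286) (adjusted p = 1.11e-11). Rnf144b, an E3 ubiquitin ligase, had 5.07, 7.74 and 11.1 CPM in 1CF10, against 0, 0 and 0.407 CPM in EV, a ratio of 61.1 (exact 95% counting interval 10.6 to 2447) (adjusted p = 3.44e-07). Neither gene passed 2.03 CPM in any library of EV, 2CD7 or WT.

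Fkbp11, a peptidyl-prolyl isomerase of the endoplasmic reticulum, was at 8.46, 13.03 and 13.3 CPM in 1CF10, against 0, 0 and 1.63 CPM in EV (log2 fold change 4.33 ± 0.48, adjusted p = 4.15e-10). It was at 0.783 to 1.82 CPM in 2CD7 and 7.55 to 9.64 CPM in WT. Arhgdib, a regulator of small GTPases, was at 22.4, 26.8 and 28.4 CPM in 1CF10, against 0.796, 2.46 and 2.85 CPM in EV (log2 fold change 3.66 ± 0.29, adjusted p = 3.14e-15). The other lines held 12.7 to 23.2 CPM (2CD7) and 25.9 to 33.97 CPM (WT), so EV was the low line. Fgfr1, a receptor of fibroblast growth factors, was at 23.3, 23.2 and 23.4 CPM in 1CF10, against 3.98, 2.87 and 1.63 CPM in EV (log2 fold change 3.02 ± 0.28, adjusted p = 5.48e-13). No EV library came near the 1CF10 libraries, and those of 2CD7 held 4.00 to 7.07 CPM and those of WT 13.2 to 16.6 CPM. Xirp2, an actin-binding protein of muscle, was at 6.76, 6.69 and 4.11 CPM in 1CF10, against 1.59, 0.410 and 0 CPM in EV (log2 fold change 3.00 ± 0.57, adjusted p = 9.53e-05). The myelin protein gene Pmp22 was at 12.7, 8.45 and 11.4 CPM in 1CF10, against 1.19, 1.23 and 1.63 CPM in EV (log2 fold change 2.95 ± 0.39, adjusted p = 4.98e-08). Both were at or below 3.14 CPM in every library of the other 3 lines.

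Mgp, an inhibitor of calcification, was at 5.496, 7.39 and 6.32 CPM in 1CF10, against 0, 1.23 and 1.63 CPM in EV (log2 fold change 2.71 ± 0.51, adjusted p = 9.00e-05). Spry1, an inhibitor of receptor tyrosine kinase signalling, was at 5.496, 6.34 and 3.48 CPM in 1CF10, against 0, 2.05 and 0.815 CPM in EV (log2 fold change 2.35 ± 0.54, adjusted p = 0.00133). Ly75, an endocytic receptor, was at 8.03, 6.34 and 6.005 CPM in 1CF10, against 1.59, 2.87 and 0.407 CPM in EV (log2 fold change 2.02 ± 0.46, adjusted p = 0.00132). The membrane proteins Ly6a and Ly6c1, whose gene family has near-identical members between which tags may be split, were at 7.61, 10.6 and 10.1 CPM and 60.5, 58.4 and 52.8 CPM in 1CF10, against 1.19, 2.05 and 2.04 CPM and 13.9, 13.1 and 13.8 CPM in EV. Their log2 fold changes were 2.41 ± 0.47 and 2.06 ± 0.16 (adjusted p = 2.12e-04 and 2.28e-15).

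Interferon-stimulated genes made up the steepest group that was lower in 1CF10. Of 52 tested antiviral effector genes, 25 were lower and 1 was higher, and the list's median log2 fold change was -1.60, against 0.0077 over all tested genes. With the 6 members at 0 UMIs in a line set at their bound, the median was -1.17. The filter on low counts used all 24 libraries, the interferon-treated ones included. In a fit of the 2 lines alone, which tested 10826 genes, 18 effectors were lower. The count of 25 came to 16 without EV replicate 3, and 16 of the 25 were called with each of the 6 libraries left out. Oas1g (ENSMUSG00000066861, chr5:120876142-120887613), an oligoadenylate synthetase that makes the messenger of RNase L, had 0.846, 0 and 0.632 CPM in 1CF10, against 17.51, 17.6 and 23.6 CPM in EV (log2 fold change -5.22 ± 0.61, adjusted p = 1.68e-06). Oas1a (ENSMUSG00000052776, chr5:120896256-120907521), its near-identical neighbour, had 0, 1.06 and 0 CPM in 1CF10, against 11.54, 10.2 and 18.7 CPM in EV. Its sums were 3 UMIs in 1CF10 and 100 UMIs in EV, a ratio of EV over 1CF10 of 37.7 (exact 95% counting interval 12.52 to 186) (adjusted p = 8.77e-07). Reads could be split between these paralogs by the counting, and in both the 3 libraries of 1CF10 lay far below the 3 of EV. Oas2, at 0 UMIs in 1CF10 and 1.19, 1.64 and 2.44 CPM in EV, was at least 4.89-fold lower (adjusted p = 0.00291), and Oas3 averaged 0.105 CPM in 1CF10 and 2.03 CPM in EV (adjusted p = 0.00520). Isg15, a ubiquitin-like protein that is attached to other proteins in the antiviral response, was at 1.27, 0.352 and 2.21 CPM in 1CF10, against 11.9, 10.2 and 32.2 CPM in EV (log2 fold change -3.73 ± 0.77, adjusted p = 0.00346). In a fit of the 2 lines alone its adjusted p was 0.0613. Rtp4, an interferon-induced chaperone, was at 3.80, 2.11 and 2.84 CPM in 1CF10, against 17.1, 22.1 and 37.47 CPM in EV (log2 fold change -3.13 ± 0.58, adjusted p = 0.00141). Ifitm3, a membrane protein that blocks virus entry and has close paralogs, was the most abundant of these genes, at 27.1, 38.02 and 34.8 CPM in 1CF10, against 179, 200.3 and 259 CPM in EV (log2 fold change -2.66 ± 0.31, adjusted p = 1.36e-05). The lines did not overlap for any of these genes, and EV replicate 3 was the highest EV library for each of those given by library.

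Further effectors were lower by smaller steps. Among them were Cmpk2 (log2 fold change -2.29 ± 0.47, adjusted p = 0.00254) and its neighbour Rsad2 (log2 fold change -2.36 ± 0.55, adjusted p = 0.00772), which makes an antiviral nucleotide, Ifi27l2a (log2 fold change -2.50 ± 0.33, adjusted p = 4.77e-08), Ifi27 (log2 fold change -1.97 ± 0.13, adjusted p = 3.00e-16) and the tether of budding virus Bst2 (log2 fold change -1.60 ± 0.32, adjusted p = 0.00308). Oasl2, a synthetase-like protein, was at 6.76, 1.76 and 2.21 CPM in 1CF10, against 14.7, 12.3 and 31.4 CPM in EV (log2 fold change -2.52 ± 0.60, adjusted p = 0.0101). The member that was higher was Apobec3, a cytidine deaminase that acts on viral DNA (log2 fold change 1.01 ± 0.19, adjusted p = 9.53e-05). Of the interferon-inducible apolipoprotein L genes, which were not on the list and are near-identical to each other, Apol9a was at 1.27, 1.41 and 1.90 CPM in 1CF10, against 13.1, 11.9 and 29.3 CPM in EV (log2 fold change -3.50 ± 0.39, adjusted p = 1.27e-08). Apol9b was at 2.11, 0.704 and 0.316 CPM in 1CF10, against 11.1, 11.9 and 18.3 CPM in EV (log2 fold change -3.78 ± 0.41, adjusted p = 3.73e-10). No library of 1CF10 reached the lowest EV library for Oasl2, Apol9a or Apol9b. Of the 14 tested interferon-induced GTPases, which attack vacuoles of intracellular pathogens, 3 were lower (21.4%, all tested genes 6.76%) and none was higher, with a median of -0.77. Gbp3, Gvin1 and Irgm2 were those called, and none of the 3 held with each library left out. The count was 0 without 1CF10 replicate 1, without 1CF10 replicate 3 or without EV replicate 3, and 1 without 1CF10 replicate 2 or EV replicate 2. Oasl2 lost its call without 1CF10 replicate 2 or 3 or EV replicate 3 (adjusted p up to 0.0670). Gbp3 lost its call without 1CF10 replicate 1, 2 or 3 or EV replicate 1 or 3 (adjusted p up to 0.184). Gvin1 lost its call without 1CF10 replicate 1 or 3 or EV replicate 2 or 3 (adjusted p up to 0.158). Irgm2 lost its call without 1CF10 replicate 1, 2 or 3 or EV replicate 2 or 3 (adjusted p up to 0.206).

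The receptor's own signalling chain showed unequal differences. Of 29 tested signalling genes 7 were lower (24.1%, all tested genes 6.76%) and 1 was higher (3.45%), with a median of -0.03. Irf9, the DNA-binding part of the complex with the Stat proteins, was at 2.96, 3.52 and 2.84 CPM in 1CF10, against 17.1, 14.3 and 13.8 CPM in EV (log2 fold change -2.26 ± 0.31, adjusted p = 2.19e-07). Irf7, the factor that amplifies interferon production, was at 1.27, 2.82 and 1.90 CPM in 1CF10, against 10.7, 9.83 and 22.4 CPM in EV (log2 fold change -2.79 ± 0.60, adjusted p = 0.00474). In both, all 3 libraries of 1CF10 lay far under those of EV, and 2CD7 was as low, at 1.57 to 2.55 CPM of Irf9 and 0.364 to 1.57 CPM of Irf7, against 8.07 to 22.3 CPM and 4.48 to 21.3 CPM in WT. Stat2, a partner of Irf9 in that complex, was at 5.92, 8.45 and 5.69 CPM in 1CF10, against 12.3, 12.3 and 14.7 CPM in EV (log2 fold change -0.96 ± 0.25, adjusted p = 0.00648). Irf3, Ptpn2, a phosphatase that acts on Stat proteins, and Socs2, a feedback inhibitor of cytokine receptors, were also lower. Ifngr1, a chain of the interferon gamma receptor, was the member that was higher (log2 fold change 0.50 ± 0.14, adjusted p = 0.00879). The count of 7 fell to 4 without 1CF10 replicate 2 and to 2 without 1CF10 replicate 3. The 1 call in the other direction was lost without 1CF10 replicate 3 or EV replicate 1, and came to 2 without EV replicate 3. Stat2 lost its call without 1CF10 replicate 3 (adjusted p up to 0.0587). Irf3 lost its call without 1CF10 replicate 3 or EV replicate 3 (adjusted p up to 0.137). Ptpn2 lost its call without 1CF10 replicate 2 or 3 or EV replicate 2 (adjusted p up to 0.174). Socs2 lost its call without 1CF10 replicate 2 or 3 or EV replicate 2 (adjusted p up to 0.134). Ifngr1 lost its call without 1CF10 replicate 3 or EV replicate 1 (adjusted p up to 0.0592).

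Of 19 sensors of foreign RNA and DNA, 5 were lower (26.3%, all tested genes 6.76%) and none was higher. The 5 came to 3 without EV replicate 1 and to 2 without EV replicate 3. Ifih1, which senses long double-stranded RNA, was at 13.1, 7.39 and 8.22 CPM in 1CF10, against 20.7, 15.6 and 24.8 CPM in EV (log2 fold change -1.12 ± 0.27, adjusted p = 0.00438). Ddx58, which senses short RNA with a triphosphate end, was at 17.8, 12.7 and 14.2 CPM in 1CF10, against 25.47, 20.9 and 35.02 CPM in EV (log2 fold change -0.88 ± 0.18, adjusted p = 2.68e-04). Ddx60, at 0 UMIs in 1CF10 and 0.796, 1.23 and 4.07 CPM in EV, was at least 5.65-fold lower. Of 21 antigen presentation genes 2 were lower (9.52%, close to the 6.76% of all tested genes) and none was higher, with a median of 0.009. B2m, the light chain of class I molecules, was at 466, 519 and 491 CPM in 1CF10, against 630.4, 655 and 704 CPM in EV (log2 fold change -0.43 ± 0.07, adjusted p = 3.23e-06). The class I heavy chain H2-D1 was at 115, 123 and 121 CPM in 1CF10, against 144, 152 and 169 CPM in EV (log2 fold change -0.37 ± 0.09, adjusted p = 0.00246). Class I heavy chains are near-identical to each other, so reads of H2-D1 could be split with its paralogs. Ddx60 lost its call without EV replicate 3 (adjusted p up to 0.0519).

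**Figure D2:**
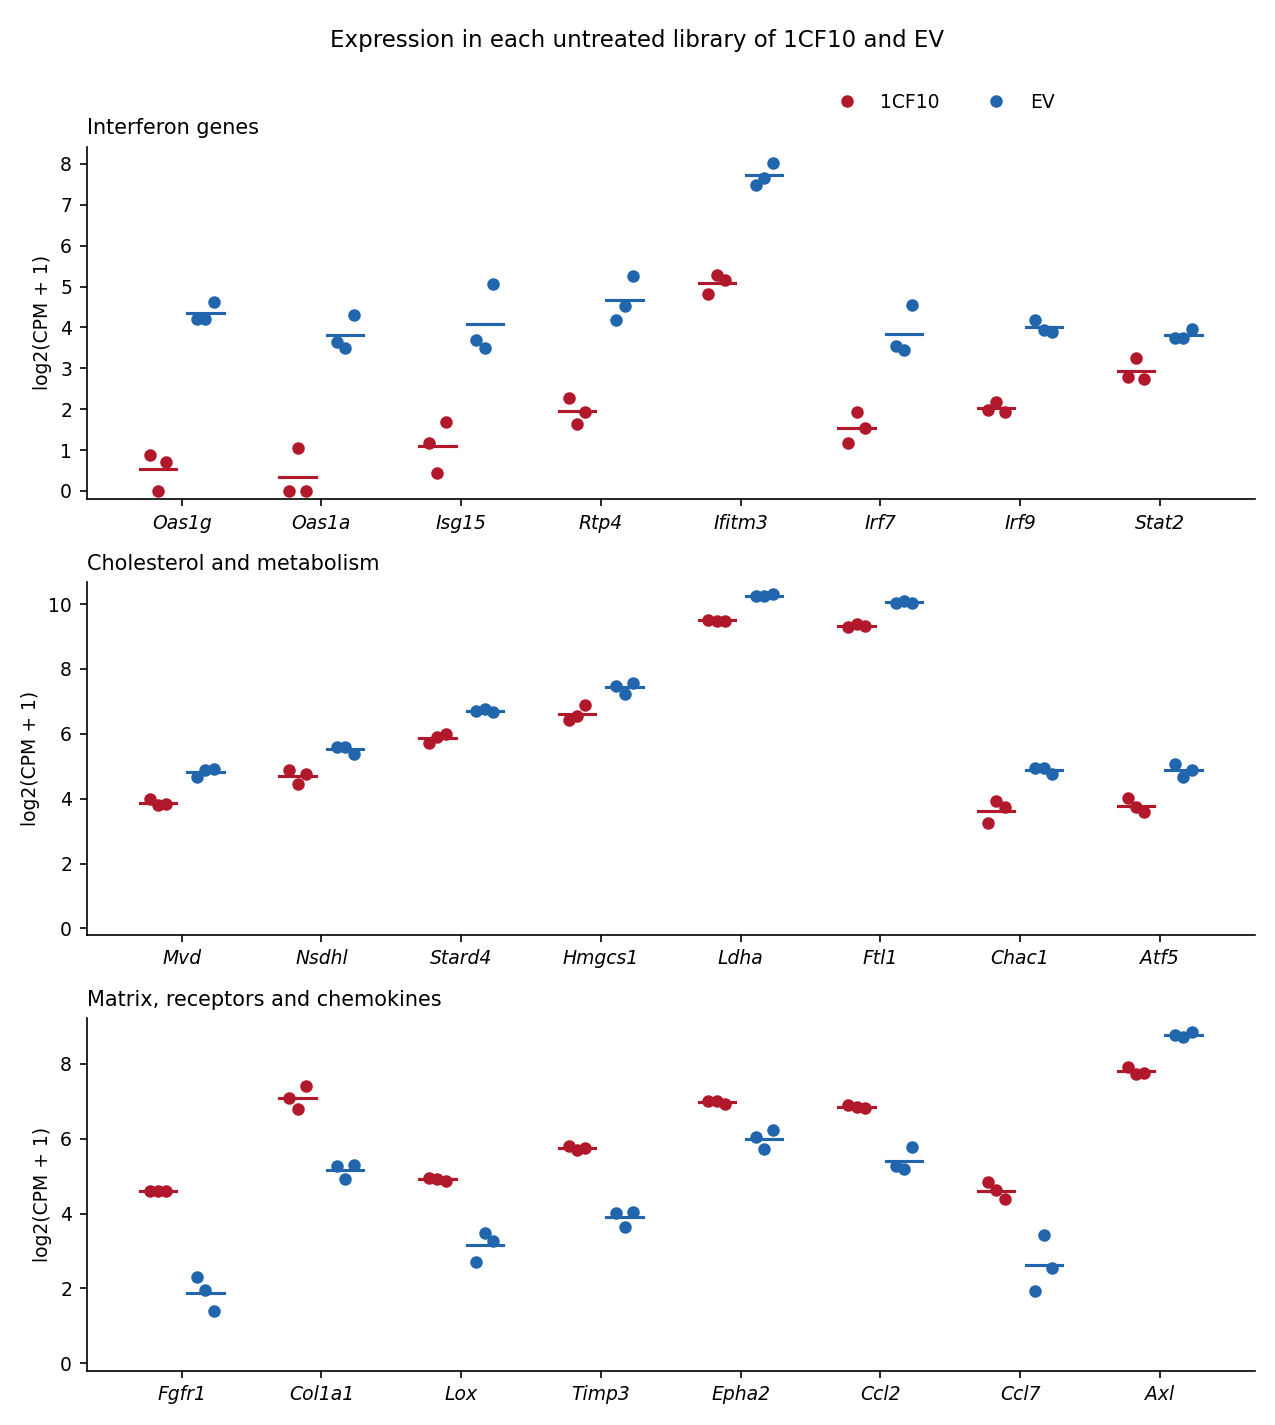
Log2(CPM + 1) of 24 genes in each untreated library, 1 point a library with a line at the group mean, 1CF10 in red left of EV in blue, for interferon genes (top), cholesterol and metabolism genes (middle) and matrix, receptor and chemokine genes (bottom). The 3 points of 1CF10 lie under the 3 of EV for every gene of the upper panels and for Axl, and above them for the other genes of the bottom panel.

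Some interferon genes of EV itself differed from those of WT. Oas1g was at 0.686 to 5.07 CPM in the WT libraries, under every EV library, and the difference of EV minus WT was 3.28 ± 0.48 on the log2 scale (adjusted p = 2.88e-05). Against WT, 1CF10 gave -1.94 ± 1.07 for Oas1g (adjusted p = 0.234) and -2.75 ± 0.95 for Oas1a (adjusted p = 0.0391). For other members the WT libraries reached into the range of EV. Isg15 was at 7.17 to 32.98 CPM in WT and Ifitm3 at 87.8 to 242 CPM, and 1CF10 against WT gave -3.49 ± 0.81 for Isg15 (adjusted p = 0.00496) and -2.08 ± 0.33 for Ifitm3 (adjusted p = 1.81e-04). In the second knockout clone, 2CD7 minus EV gave -2.95 ± 0.69 for Isg15 (adjusted p = 0.0106), -2.29 ± 0.30 for Ifitm3 (adjusted p = 5.89e-05) and -2.86 ± 0.35 for Irf9 (adjusted p = 1.45e-08). These comparisons share the EV or the 1CF10 libraries with the one described here and are not independent of it. Over all tested genes, 19.2% were called between 1CF10 and WT, 14.1% between EV and WT and 8.86% between 2CD7 and EV. Between 1CF10 and 2CD7 the difference was -0.78 ± 1.23 for Isg15 (adjusted p = 0.770) and -0.37 ± 0.38 for Ifitm3 (adjusted p = 0.628), and neither was called, against 13.4% of tested genes in that comparison.

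Il2rg, the chain that receptors of several interleukins share, was at 2.96, 2.82 and 1.90 CPM in 1CF10, against 16.3, 17.6 and 16.7 CPM in EV (log2 fold change -2.72 ± 0.31, adjusted p = 7.11e-10). WT was at 1.72 to 3.55 CPM and 2CD7 at 0 to 1.09 CPM, so EV was the high line. The adhesion and immune ligand genes differed in both directions. Raet1e, a ligand of the activating receptor NKG2D on natural killer cells, had 28 UMIs in 1CF10 and 2 UMIs in EV, a ratio of 1CF10 over EV of 12.4 (exact 95% counting interval 3.13 to 107) (adjusted p = 0.00132). Cd55, which protects cells from complement, was at 53.7, 45.8 and 65.1 CPM in 1CF10, against 31.8, 22.52 and 25.3 CPM in EV (log2 fold change 1.05 ± 0.23, adjusted p = 0.00384). No EV library reached the lowest 1CF10 library of either gene, while 2CD7 and WT were at 51.1 to 72.0 and 72.6 to 125 CPM of Cd55. These were 2 of 12 tested checkpoint and immune ligand genes, of which Lgals9 was lower (log2 fold change -0.43 ± 0.11, adjusted p = 0.00986). Lgals9 lost its call without EV replicate 3 (adjusted p up to 0.0615).

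Genes of cholesterol and fatty acid synthesis were lower as a group. Of 37 tested genes 21 were lower and none was higher, against the 6.76% of all tested genes, with a median of -0.43. The steps were under 2-fold in all but Mvd and ran along the whole pathway. Hmgcs1, which makes the precursor of mevalonate (ENSMUSG00000093930, chr13:119690379-119708260), was at 84.1, 92.2 and 117 CPM in 1CF10, against 177, 149 and 190.2 CPM in EV (log2 fold change -0.81 ± 0.12, adjusted p = 3.11e-05). Mvd, which makes isopentenyl diphosphate from mevalonate diphosphate, was at 14.8, 13.03 and 13.3 CPM in 1CF10, against 24.7, 28.7 and 28.9 CPM in EV (log2 fold change -1.005 ± 0.18, adjusted p = 2.35e-05). Nsdhl, a late step from lanosterol to cholesterol, was at 28.7, 21.1 and 25.9 CPM in 1CF10, against 47.8, 47.5 and 40.3 CPM in EV (log2 fold change -0.85 ± 0.14, adjusted p = 7.83e-06). In each of these genes every library of 1CF10 lay under every library of EV, and under the 2CD7 and WT ranges too, which were 27.4 to 28.7 and 28.2 to 38.4 CPM for Mvd. Stard4, a sterol carrier on chromosome 18, was at 51.6, 59.1 and 62.9 CPM in 1CF10, against 104, 107 and 102 CPM in EV (log2 fold change -0.84 ± 0.10, adjusted p = 2.35e-09).

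The squalene and lanosterol steps were lower too, namely Sqle (log2 fold change -0.66 ± 0.08, adjusted p = 1.57e-08), Lss (log2 fold change -0.74 ± 0.14, adjusted p = 1.06e-04), Fdft1 (log2 fold change -0.60 ± 0.10, adjusted p = 1.67e-05), Cyp51 (log2 fold change -0.59 ± 0.08, adjusted p = 3.44e-07) and Msmo1 (log2 fold change -0.53 ± 0.07, adjusted p = 2.05e-07). So were the desaturases of fatty acids Scd2 (log2 fold change -0.73 ± 0.15, adjusted p = 0.00282), Scd1 (log2 fold change -0.59 ± 0.12, adjusted p = 2.55e-04) and Fads1 (log2 fold change -0.38 ± 0.07, adjusted p = 1.26e-04) and the fatty acid synthase Fasn (log2 fold change -0.47 ± 0.09, adjusted p = 1.88e-04). Of the 21 calls, 13 held with each library left out, the count ranged from 15 to 23, and 1 member was higher without 1CF10 replicate 2 or EV replicate 3. The transcription factors that drive this pathway were not called, with -0.01 ± 0.11 for Srebf1 (adjusted p = 0.986) and 0.07 ± 0.09 for Srebf2 (adjusted p = 0.733), nor was the sterol sensor Insig1 (log2 fold change -0.65 ± 0.29, adjusted p = 0.207).

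Extracellular matrix genes were higher more often than lower. Of 39 tested genes of collagens and matrix 12 were higher (all tested genes 3.6%) and 5 were lower (6.76%), and the median was 0.14. Col1a1, a chain of type I collagen, was at 135, 110.2 and 168 CPM in 1CF10, against 37.8, 29.49 and 38.3 CPM in EV (log2 fold change 1.97 ± 0.13, adjusted p = 3.00e-16). Lox, which crosslinks collagen and lies on chromosome 18, was at 30.02, 29.2 and 28.1 CPM in 1CF10, against 5.57, 10.2 and 8.55 CPM in EV (log2 fold change 1.84 ± 0.20, adjusted p = 2.61e-10). Dcn, the collagen-binding proteoglycan decorin, was at 12.7, 22.53 and 22.1 CPM in 1CF10, against 6.77, 6.96 and 4.89 CPM in EV (log2 fold change 1.64 ± 0.24, adjusted p = 5.32e-07). The 1CF10 libraries were above all EV libraries for each of these genes, while 2CD7 stood at 21.1 to 30.3 CPM and WT at 60.5 to 72.4 CPM of Col1a1. Emilin1, an elastin-associated glycoprotein, was at 4.23, 6.69 and 4.74 CPM in 1CF10, against 0.398, 2.05 and 1.22 CPM in EV (log2 fold change 2.07 ± 0.47, adjusted p = 0.00123). Npnt, an integrin ligand, was higher as well (log2 fold change 1.30 ± 0.27, adjusted p = 3.06e-04), as were Aebp1, which binds collagen (log2 fold change 1.09 ± 0.11, adjusted p = 9.03e-12), and Sparc (log2 fold change 0.37 ± 0.06, adjusted p = 2.11e-06).

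Lower was Agrn, the basement membrane proteoglycan agrin, at 6.34, 2.11 and 5.06 CPM in 1CF10, against 12.3, 15.97 and 16.7 CPM in EV (log2 fold change -1.75 ± 0.27, adjusted p = 1.89e-06). So were Bgn (log2 fold change -0.29 ± 0.06, adjusted p = 7.37e-04) and Ltbp1 (log2 fold change -0.31 ± 0.08, adjusted p = 0.00550), which binds latent TGF-beta. Of the 12 calls upward 8 held, and of the 5 downward 3 held, with each library left out, and the 5 came to 3 without 1CF10 replicate 2 or EV replicate 3.

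P4ha2, a collagen prolyl hydroxylase, was at 6.76, 5.28 and 5.06 CPM in 1CF10, against 1.59, 1.23 and 0.815 CPM in EV (log2 fold change 2.17 ± 0.45, adjusted p = 3.04e-04). There were 11.3 to 17.7 CPM in 2CD7 and 5.15 to 8.12 CPM in WT, so EV was the low line. Of the genes that take matrix apart, 24 were tested. Of these 4 were higher (16.7%, all tested genes 3.6%) and 3 were lower (12.5%, all tested genes 6.76%). Timp3, an inhibitor of metalloproteinases, was at 54.54, 51.04 and 53.4 CPM in 1CF10, against 15.1, 11.47 and 15.48 CPM in EV (log2 fold change 1.91 ± 0.17, adjusted p = 2.05e-13). This was above every library of the other 3 lines. Mmp13, a collagenase, was at 20.3, 25.7 and 18.3 CPM in 1CF10, against 39.8, 33.6 and 42.4 CPM in EV (log2 fold change -0.85 ± 0.16, adjusted p = 1.06e-04). Plaur, the urokinase receptor, was lower too (log2 fold change -0.43 ± 0.09, adjusted p = 5.50e-04). The count of 4 came to 1 without 1CF10 replicate 1 and to 2 without 1CF10 replicate 2 or any of the EV libraries.

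Of 46 growth factor receptors 3 were higher and 3 lower, 13% in all, which is close to the 10.4% of all tested genes, and Fgfr1 was the steepest of them. Axl, the receptor kinase of Gas6, which lies on chromosome 7, was at 239, 212 and 216 CPM in 1CF10, against 438, 419 and 461 CPM in EV (log2 fold change -0.98 ± 0.07, adjusted p = 2.79e-17), with no overlap between the lines. Epha2, an ephrin receptor, was at 129, 128 and 122 CPM in 1CF10, against 64.9, 51.6 and 73.7 CPM in EV (log2 fold change 0.99 ± 0.11, adjusted p = 1.00e-09). All 3 libraries of 1CF10 were above the 9 other untreated libraries. Without 1CF10 replicate 2 the 3 receptors called lower came to 1. Among 37 growth factor ligands 4 were higher and 1 was lower, which came to 2 without EV replicate 2. Sema3a, a guidance factor, was at 40.2, 48.6 and 42.3 CPM in 1CF10, against 29.8, 20.48 and 21.6 CPM in EV (log2 fold change 0.87 ± 0.16, adjusted p = 8.53e-05). Edn1, endothelin, was at 56.7, 60.5 and 57.8 CPM in 1CF10, against 40.99, 38.9 and 44.8 CPM in EV (log2 fold change 0.49 ± 0.13, adjusted p = 0.00508). The ligand that was lower was Gdf6, of the bone morphogenetic protein family, at 4.65, 3.17 and 4.11 CPM in 1CF10, against 8.36, 9.42 and 9.77 CPM in EV (log2 fold change -1.21 ± 0.32, adjusted p = 0.00614).

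Of 25 Wnt pathway genes 3 were higher (12%, all tested genes 3.6%). Wnt11 was at 20.7, 18.7 and 23.1 CPM in 1CF10, against 7.96, 6.96 and 7.74 CPM in EV (log2 fold change 1.46 ± 0.24, adjusted p = 6.36e-06). Wnt10a was at 467, 437 and 484 CPM in 1CF10, against 366, 381 and 405 CPM in EV (log2 fold change 0.27 ± 0.06, adjusted p = 0.00216). Wnt6 was the other (log2 fold change 0.42 ± 0.11, adjusted p = 0.00453), and Wnt7b, given above, was lower. Of 19 genes that respond to TGF-beta or bone morphogenetic proteins 4 were higher (21.1%, all tested genes 3.6%) and 2 lower (10.5%, all tested genes 6.76%). The 2 came to 1 without 1CF10 replicate 2 or 3 or EV replicate 3. Fstl1, which binds these ligands, was at 129, 117 and 129 CPM in 1CF10, against 54.52, 63.9 and 72.5 CPM in EV (log2 fold change 0.97 ± 0.11, adjusted p = 4.85e-10). Id3, an inhibitor of basic helix-loop-helix factors, was at 96.0, 113 and 119 CPM in 1CF10, against 79.6, 80.3 and 72.5 CPM in EV (log2 fold change 0.51 ± 0.10, adjusted p = 1.50e-04). Of 12 Notch genes 2 were higher (16.7%), which came to 1 with any of the 6 libraries left out, and 1 was lower (8.33%). This was Numb, an inhibitor of Notch on chromosome 12, at 2.11, 2.46 and 3.79 CPM in 1CF10, against 8.36, 7.37 and 7.33 CPM in EV (log2 fold change -1.41 ± 0.37, adjusted p = 0.00657). Hbegf, an EGF receptor ligand, was higher as well (log2 fold change 0.42 ± 0.11, adjusted p = 0.00578). Wnt6 lost its call without 1CF10 replicate 3 or EV replicate 1 (adjusted p up to 0.114).

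Chemokine genes went both ways, with 3 of 19 tested higher and 3 lower (15.8% each way, all tested genes 3.6% and 6.76%). Ccl2, which attracts monocytes, was at 119, 114 and 113 CPM in 1CF10, against 37.8, 35.2 and 54.2 CPM in EV (log2 fold change 1.44 ± 0.11, adjusted p = 3.29e-16). Ccl7, its neighbour on chromosome 11, was at 27.48, 23.6 and 19.9 CPM in 1CF10, against 2.79, 9.83 and 4.89 CPM in EV (log2 fold change 2.00 ± 0.27, adjusted p = 1.72e-07). All 3 libraries of 1CF10 lay above all 3 of EV for both, and 2CD7 was at 125 to 131 CPM and WT at 94.0 to 110.3 CPM of Ccl2, so that EV was the low line. Ccl5, which attracts T cells and is known to be interferon-induced in many cells, was at 16.49, 9.505 and 14.2 CPM in 1CF10, against 23.48, 30.3 and 30.1 CPM in EV (log2 fold change -1.07 ± 0.19, adjusted p = 3.47e-05). Cxcl12 was lower (log2 fold change -0.50 ± 0.08, adjusted p = 6.12e-06). So was the abundant secreted protein osteopontin, Spp1, at 3155, 2853 and 3090.1 CPM in 1CF10, against 3895, 3861 and 3941 CPM in EV (log2 fold change -0.36 ± 0.06, adjusted p = 2.74e-06).

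Of 21 NF-kB target genes 5 were higher (23.8%, all tested genes 3.6%). Icam1, an adhesion molecule for leukocytes, was at 50.3, 51.04 and 48.7 CPM in 1CF10, against 31.4, 27.03 and 24.4 CPM in EV (log2 fold change 0.85 ± 0.14, adjusted p = 4.46e-06). Tnfaip2, on chromosome 12, was lower at 148, 135 and 143 CPM in 1CF10, against 203, 219.5 and 197 CPM in EV (log2 fold change -0.54 ± 0.08, adjusted p = 2.18e-06). The count of 5 came to 3 without 1CF10 replicate 1 or 3 or EV replicate 1 or 3. Of 31 integrin and adhesion genes 5 were higher (16.1%, all tested genes 3.6%) and 2 lower (6.45%, all tested genes 6.76%). Gpc1, a heparan sulfate proteoglycan, was at 101, 89.1 and 85.6 CPM in 1CF10, against 56.51, 46.3 and 62.7 CPM in EV (log2 fold change 0.73 ± 0.12, adjusted p = 1.85e-05). Sdc1, a proteoglycan on chromosome 12, was at 105, 114 and 123 CPM in 1CF10, against 152, 152 and 171 CPM in EV (log2 fold change -0.47 ± 0.09, adjusted p = 7.27e-05). The 5 came to 3 without 1CF10 replicate 3 or EV replicate 1, and the 2 to 1 with any of the 6 libraries left out.

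Keratins of the surface epithelium differed in opposite directions. Krt8 was at 367, 413 and 404 CPM in 1CF10, against 595, 701 and 578 CPM in EV (log2 fold change -0.66 ± 0.10, adjusted p = 8.06e-05). Its partner Krt18 was lower too (log2 fold change -0.37 ± 0.06, adjusted p = 1.31e-05). Krt19 was at 753, 786 and 774 CPM in 1CF10, against 555, 579 and 597 CPM in EV (log2 fold change 0.42 ± 0.06, adjusted p = 6.31e-07). Upk1b, a uroplakin of mesothelium, was at 276, 291 and 268 CPM in 1CF10, against 207, 221 and 216 CPM in EV (log2 fold change 0.37 ± 0.07, adjusted p = 5.95e-05). For Krt19 and Upk1b the EV libraries were the lowest of the 4 lines, and for Krt8 those of 1CF10 were. In all, 3 of 13 mesothelial and epithelial genes were higher (23.1%, all tested genes 3.6%) and 4 lower (30.8%, all tested genes 6.76%). The 4 came to 2 without 1CF10 replicate 2 or 3 or EV replicate 1.

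Genes of the immediate early response were higher in 8 of 27 cases (29.6%, against 3.6% of all tested genes) and none was lower, with a median of 0.20. Dusp1, a phosphatase that ends MAP kinase signals, was at 60.9, 65.8 and 54.7 CPM in 1CF10, against 43.4, 43.0 and 34.2 CPM in EV (log2 fold change 0.58 ± 0.13, adjusted p = 0.00113). Ier2 (log2 fold change 0.43 ± 0.11, adjusted p = 0.00436) and Phlda1 (log2 fold change 0.49 ± 0.09, adjusted p = 3.06e-05) were higher as well. Those 3 were called with each library left out. The count came to 4 without 1CF10 replicate 3 or EV replicate 2. The other members that were higher were Egr1 and Junb, transcription factors of that response, and Srf, Ier5 and Zfp36l1. Egr1 lost its call without 1CF10 replicate 3 or EV replicate 1 (adjusted p up to 0.0750). Junb lost its call without 1CF10 replicate 3 or EV replicate 1 or 2 (adjusted p up to 0.231). Srf lost its call without 1CF10 replicate 1 or EV replicate 2 (adjusted p up to 0.0798). Ier5 lost its call without 1CF10 replicate 1, 2 or 3 or EV replicate 2 or 3 (adjusted p up to 0.233). Zfp36l1 lost its call without 1CF10 replicate 2 or 3 or EV replicate 2 or 3 (adjusted p up to 0.179).

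Ankrd1, a cofactor of muscle and stress responses that YAP and SRF are known to drive, was the most abundant gene of the YAP and TEAD list, at 803, 874 and 865 CPM in 1CF10, against 521, 664 and 564 CPM in EV (log2 fold change 0.54 ± 0.11, adjusted p = 0.00321). Its WT libraries held 199 to 215 CPM and its 2CD7 libraries 278 to 353 CPM, below both 1CF10 and EV. Of 25 genes on that list 4 were higher (16%) and 3 lower (12%), against 3.6% and 6.76% of all tested genes. The 4 came to 2 without 1CF10 replicate 1 or EV replicate 3. Without 1CF10 replicate 2 or 3 or EV replicate 1 they came to 1.

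Among the genes with the largest differences in CPM, Actg1, cytoplasmic gamma actin, whose pseudogenes may share its reads, was at 3032, 3042 and 2919.8 CPM in 1CF10, against 2431, 2448 and 2417 CPM in EV (log2 fold change 0.30 ± 0.05, adjusted p = 2.00e-05). Tmsb4x, which binds actin monomers, was at 1565, 1748 and 1726 CPM in 1CF10, against 1281, 1426 and 1264 CPM in EV (log2 fold change 0.34 ± 0.06, adjusted p = 4.33e-05). Myl12a, a myosin light chain, was at 1337, 1357 and 1305 CPM in 1CF10, against 1085, 1166 and 1087 CPM in EV (log2 fold change 0.26 ± 0.05, adjusted p = 3.62e-04).

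Genes of the unfolded protein and integrated stress responses were lower in 9 of 36 cases (all tested genes 6.76%) and none was higher, with a median of -0.25. Chac1, a glutathione-degrading enzyme induced by the factor Atf4, was at 8.46, 14.1 and 12.3 CPM in 1CF10, against 29.8, 29.9 and 26.1 CPM in EV (log2 fold change -1.27 ± 0.19, adjusted p = 7.20e-07). Atf5, a transcription factor of the same response that lies on chromosome 7, was at 15.2, 12.3 and 11.1 CPM in 1CF10, against 32.2, 24.6 and 28.51 CPM in EV (log2 fold change -1.16 ± 0.19, adjusted p = 6.88e-06). For both genes EV stood above the other lines, with 10.6 to 16.7 CPM in 2CD7 and 7.89 to 13.7 CPM in WT for Chac1. Mthfd2, of mitochondrial folate metabolism, was at 123, 129.9 and 127 CPM in 1CF10, against 198, 203 and 224 CPM in EV (log2 fold change -0.71 ± 0.09, adjusted p = 2.89e-08). Sel1l, of protein degradation at the endoplasmic reticulum, lies on chromosome 12 and was at 32.1, 26.4 and 30.97 CPM in 1CF10, against 51.7, 51.6 and 47.6 CPM in EV (log2 fold change -0.76 ± 0.14, adjusted p = 6.88e-05). Nupr1 (log2 fold change -0.67 ± 0.13, adjusted p = 0.00216), Herpud1 (log2 fold change -0.61 ± 0.14, adjusted p = 0.00279) and Pdia6 (log2 fold change -0.54 ± 0.07, adjusted p = 4.83e-08) were lower as well. Atf4 lost its call without 1CF10 replicate 3 or EV replicate 2 (adjusted p up to 0.0583).

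Of 36 hypoxia and glycolysis genes 5 were lower (13.9%, all tested genes 6.76%) and 2 higher (5.56%, all tested genes 3.6%). Of the 5, 3 lay on the chromosomes rich in lower genes that are described below. Away from those chromosomes 2 of 24 were lower (8.33%, all tested genes there 3.30%). Another 2 were higher there (8.33%, all tested genes there 3.99%), and the median was -0.10. Ldha, lactate dehydrogenase, on chromosome 7, was at 734, 719 and 709.8 CPM in 1CF10, against 1205, 1211 and 1272 CPM in EV (log2 fold change -0.77 ± 0.06, adjusted p = 1.18e-16). Of the glycolysis enzymes Gpi1 (log2 fold change -0.59 ± 0.08, adjusted p = 1.92e-08), Hk2 (log2 fold change -0.45 ± 0.10, adjusted p = 0.00120) and Pkm (log2 fold change -0.22 ± 0.05, adjusted p = 0.00225) were lower. Car12, a carbonic anhydrase, was at 30.4, 30.6 and 32.9 CPM in 1CF10, against 18.3, 19.7 and 14.3 CPM in EV (log2 fold change 0.85 ± 0.17, adjusted p = 1.92e-04).

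Of 17 iron and metallothionein genes 5 were lower and 1 was higher, the 1 lost without EV replicate 1. Both ferritin chains were lower. Ftl1 on chromosome 7 was at 625, 668 and 644 CPM in 1CF10, against 1049, 1085 and 1051 CPM in EV (log2 fold change -0.72 ± 0.06, adjusted p = 5.49e-13). Fth1 on chromosome 19 was at 2739.9, 2793 and 2686 CPM in 1CF10, against 3186, 3362 and 3203 CPM in EV (log2 fold change -0.25 ± 0.06, adjusted p = 0.00153). Trf, the iron carrier transferrin, was at 4.23, 2.46 and 2.53 CPM in 1CF10, against 9.95, 9.83 and 7.33 CPM in EV (log2 fold change -1.58 ± 0.31, adjusted p = 1.20e-04). Levels were 28.4 to 32.5 CPM in 2CD7 and 28.1 to 30.95 CPM in WT.

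Of 37 antioxidant genes 6 were higher (16.2%, all tested genes 3.6%) and 4 lower (10.8%, all tested genes 6.76%). Gsta4, a glutathione transferase, was at 224, 266 and 264 CPM in 1CF10, against 130.1, 140.1 and 132 CPM in EV (log2 fold change 0.91 ± 0.14, adjusted p = 1.25e-04). Aldh1a1, which makes retinoic acid, was at 9.30, 5.28 and 10.1 CPM in 1CF10, against 3.18, 0.819 and 1.63 CPM in EV (log2 fold change 2.10 ± 0.40, adjusted p = 8.94e-05). Gsto1, a glutathione transferase on chromosome 19, was at 621, 669.9 and 616 CPM in 1CF10, against 1039, 1093 and 1054 CPM in EV (log2 fold change -0.74 ± 0.06, adjusted p = 4.60e-14).

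The p53 target genes were lower in 4 of 26 cases (15.4%, all tested genes 6.76%) and higher in 1 (3.85%, all tested genes 3.6%). Both lines are labelled Trp53 knockout. Cdkn1a, an inhibitor of cyclin-dependent kinases, was at 31.7, 26.4 and 26.55 CPM in 1CF10, against 41.4, 50.8 and 39.1 CPM in EV (log2 fold change -0.64 ± 0.15, adjusted p = 0.00224). Bax, which opens mitochondria in cell death and lies on chromosome 7, was at 82.0, 89.8 and 76.5 CPM in 1CF10, against 114, 133 and 124 CPM in EV (log2 fold change -0.58 ± 0.10, adjusted p = 3.28e-05). Cdkn1a was lower still in WT, at 9.61 to 16.6 CPM, with 16.1 to 27.6 CPM in 2CD7. The 1 call upward was lost without 1CF10 replicate 3 or EV replicate 2. Of 40 cell death genes 2 were higher and 4 were lower. Tnfrsf21, a death receptor, was at 45.7, 45.8 and 46.46 CPM in 1CF10, against 32.2, 31.1 and 33.8 CPM in EV (log2 fold change 0.50 ± 0.13, adjusted p = 0.00689). The 2 came to 1 without 1CF10 replicate 1 or EV replicate 1 or 3 and to 3 without EV replicate 2, and the 4 to 2 without any of the 6 libraries other than EV replicate 1.

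Of 62 cell cycle genes 5 were higher and 3 lower, 12.9% in all against 10.4% of all tested genes. The shares called were likewise near that level for cell death (15%), lineage factor (14.3%), growth factor ligand (13.5%) and mesenchymal genes (14.3%), and lower for homologous recombination (5%) and imprinted genes (5.56%). Ccnd2, cyclin D2, was at 739.8, 709 and 715 CPM in 1CF10, against 1010.4, 971 and 1014 CPM in EV (log2 fold change -0.47 ± 0.07, adjusted p = 9.21e-06). Mcm2, a helicase of replication, was at 182, 191 and 186 CPM in 1CF10, against 243, 273 and 248 CPM in EV (log2 fold change -0.45 ± 0.08, adjusted p = 1.11e-05). Ccnb2, cyclin B2, was at 104, 101 and 90.4 CPM in 1CF10, against 72.8, 68.8 and 74.5 CPM in EV (log2 fold change 0.45 ± 0.10, adjusted p = 8.52e-04). The 5 came to 1 without 1CF10 replicate 2 or EV replicate 1, to 2 without EV replicate 3 and to 3 without 1CF10 replicate 3 or EV replicate 2.

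Of 40 homologous recombination genes, the pathway Brca2 works in, 2 were lower and none was higher, with 1 lower without 1CF10 replicate 1 or 2 and none without 1CF10 replicate 3 or EV replicate 1 or 2. Among 42 lineage transcription factors 4 were higher and 2 lower. Foxs1, a forkhead factor, was at 36.4, 30.3 and 35.1 CPM in 1CF10, against 11.9, 18.02 and 21.99 CPM in EV (log2 fold change 0.97 ± 0.18, adjusted p = 5.41e-05). The 4 came to 1 without 1CF10 replicate 3 and to 2 without EV replicate 1 or 3, and the 2 to 1 without 1CF10 replicate 2 or any of the EV libraries. Of 13 mitochondrially encoded mRNAs 3 were lower (23.1%, all tested genes 6.76%), 1 without 1CF10 replicate 1 and none without 1CF10 replicate 2 or EV replicate 3.

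Of the short lists, 1 of 14 mesenchymal genes was higher, Fgfr1, and 1 was lower, Axl, with 2 lower without 1CF10 replicate 2 or EV replicate 3. Of 18 imprinted genes 1 was higher, Dcn. Of the markers of other cell types that were tested, 3 of 4 of fibroblast and stroma were higher, Dcn and Col1a1 among them, with 2 higher without 1CF10 replicate 3 or EV replicate 1 or 3. Of 2 endothelial genes 1 was higher, lost without 1CF10 replicate 3 or EV replicate 3, and the 1 leukocyte gene was not called. Mitochondrial genes took 1.22% to 1.33% of UMIs in 1CF10 and 1.42% to 1.47% in EV.

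**Figure D3:**
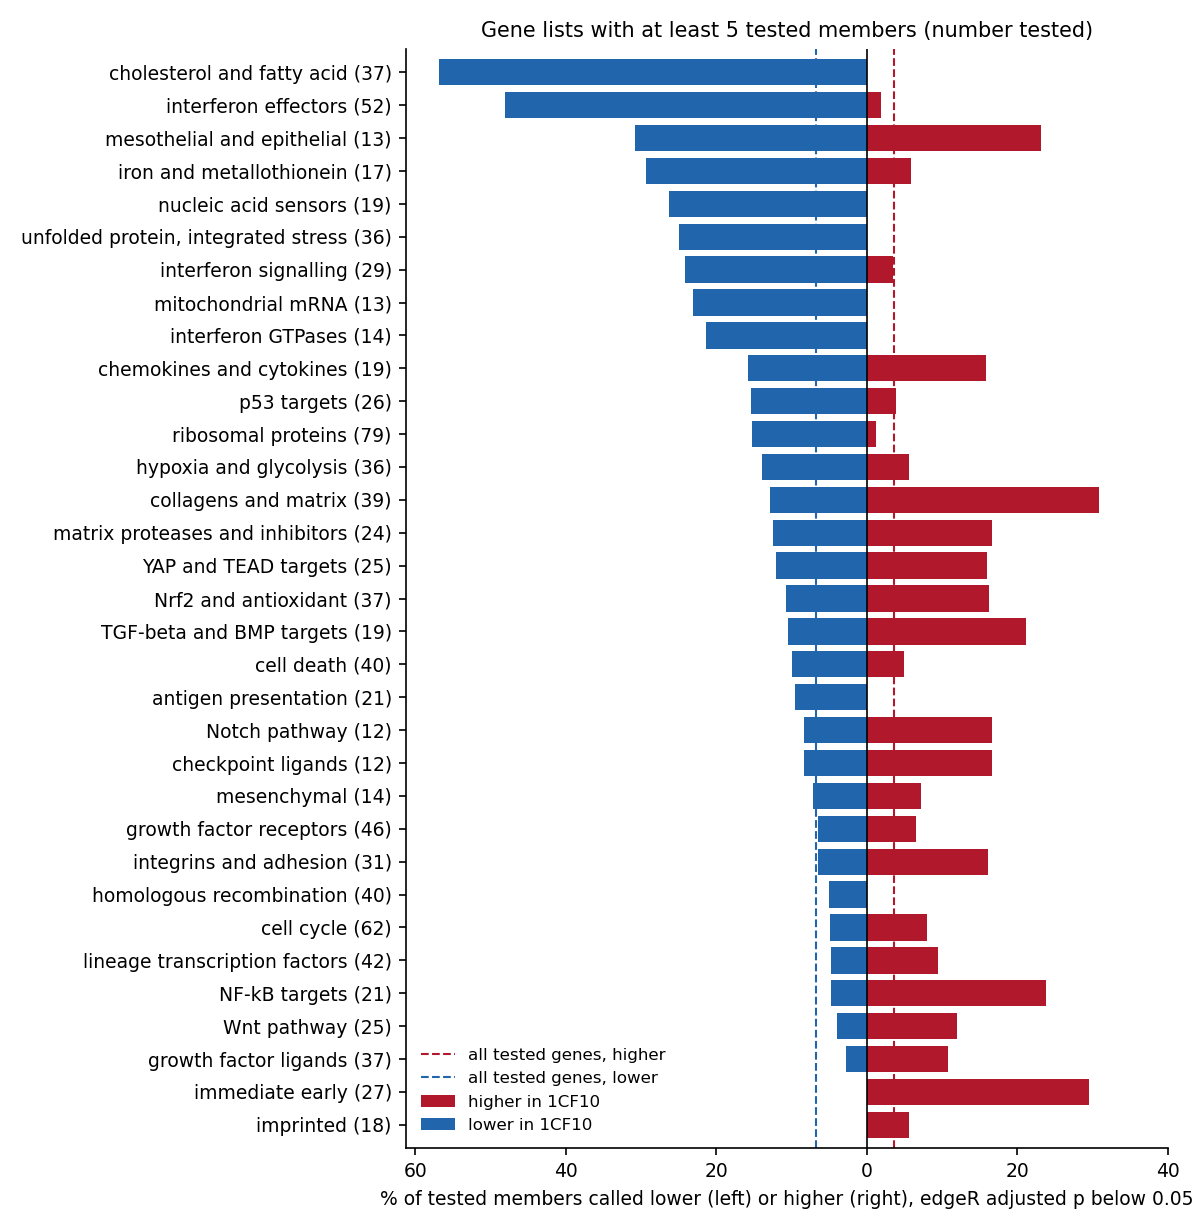
Share of the tested members of each gene list with at least 5 of them that were called lower (blue, to the left) or higher (red, to the right) in untreated 1CF10 than in untreated EV, with dashed lines at the shares over all tested genes, 6.76% lower and 3.6% higher. Cholesterol and fatty acid genes (21 of 37 lower) and interferon effectors (25 of 52 lower) have the longest bars to the left, and collagens and matrix (12 of 39) and immediate early genes (8 of 27) the longest to the right.

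Genes that were lower in 1CF10 lay unevenly over the genome. Among the 7729 genes with an average log2 CPM above 4, 8.32% were called lower and 4.15% higher. On chromosome 12, 125 of 229 genes were lower (54.6%) and 3 were higher, and the median log2 fold change of the chromosome was -0.43. On chromosome 18, 71 of 209 were lower (34.0%) and 6 higher, with a median of -0.27. On chromosome 7 the genes that were lower lay mostly at its start. The windows of 0 to 20, 20 to 40 and 40 to 60 Mb had medians of -0.47, -0.45 and -0.39, with 55.9%, 63.8% and 52.0% of their 68, 80 and 50 genes lower and none higher. From 60 Mb on, the medians of the 5 windows were 0.01 to 0.07. On chromosome 6 the windows of 60 to 80 and 80 to 100 Mb had medians of -0.15 and -0.21, with 24.3% and 32.0% of their 37 and 75 genes lower, and the medians of the other 6 windows were above 0. Chromosome 19 was lower by a small step over its whole length, with a median of -0.12 and 11.7% of 316 genes lower.

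**Figure D4:**
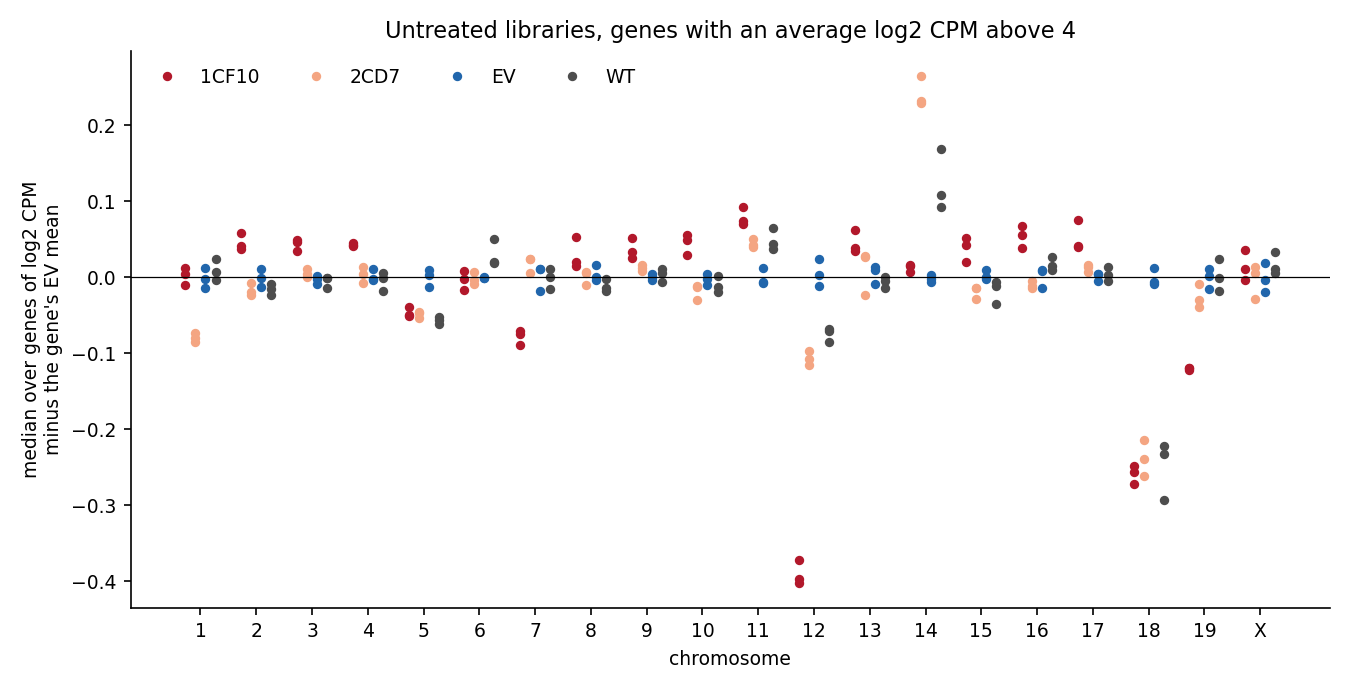
Median over the genes of each chromosome of the log2 CPM minus the gene's mean in EV, for every untreated library (x axis, chromosomes, with 1 point a library, 1CF10 red, 2CD7 orange, EV blue, WT grey), for genes with an average log2 CPM above 4. The 1CF10 libraries stand below the other 3 lines on chromosomes 12, 7 and 19, and on chromosome 18 the EV libraries stand above the other 3 lines.

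The other untreated lines place these blocks. On chromosome 12 the median of 1CF10 was -0.31 against WT and -0.26 against 2CD7, while EV minus WT had a median of 0.08. On chromosome 18 the median of 1CF10 was 0.02 against WT and 0.01 against 2CD7, and EV minus WT had a median of 0.25. There EV was the line that differed. On the first 20 Mb of chromosome 7 the medians were -0.39 against WT and -0.46 against 2CD7, with 0.04 for EV minus WT. Several genes named above lie in these blocks, among them Ldha, Ftl1, Bax, Axl, Atf5 and Lgals7 on the start of chromosome 7, Sdc1, Sel1l, Tnfaip2 and Numb on chromosome 12, and Stard4 on chromosome 18.

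Of 79 ribosomal protein genes 12 were lower (15.2%, all tested genes 6.76%) and 1 was higher (1.27%, all tested genes 3.6%). The 1 call was lost without any library other than EV replicate 2. Of the 12, 11 lay on chromosomes 6, 7, 12, 18 or 19. Rps29 on chromosome 12 was at 312, 351 and 318 CPM in 1CF10, against 442, 483 and 449 CPM in EV (log2 fold change -0.49 ± 0.07, adjusted p = 1.16e-07). Rps14 on chromosome 18 was at 1957, 2015 and 1967 CPM in 1CF10, against 2321, 2514 and 2469 CPM in EV (log2 fold change -0.30 ± 0.06, adjusted p = 1.71e-04). Ribosomal protein genes have many pseudogenes with which reads may be shared. These 5 were picked from these data among the nuclear chromosomes, by genes with an average log2 CPM above 4. Over 10% of those genes were lower on each, against 8.32% over all such genes. The mitochondrial genome, with 3 of 15 such genes lower (20%), was not part of this pick and stayed in the counts that follow. Away from the 5 chromosomes, 367 genes were higher and 303 lower, 3.30% of the 9195 tested genes there, against 6.76% of all tested genes. There, 17 of 32 interferon effectors (53.1%), 15 of 29 cholesterol and fatty acid genes (51.7%) and 3 of 22 stress response genes (13.6%) were lower. For the interferon and the cholesterol lists these shares were close to those over all chromosomes, 48.1% and 56.8%.

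**Figure D5:**
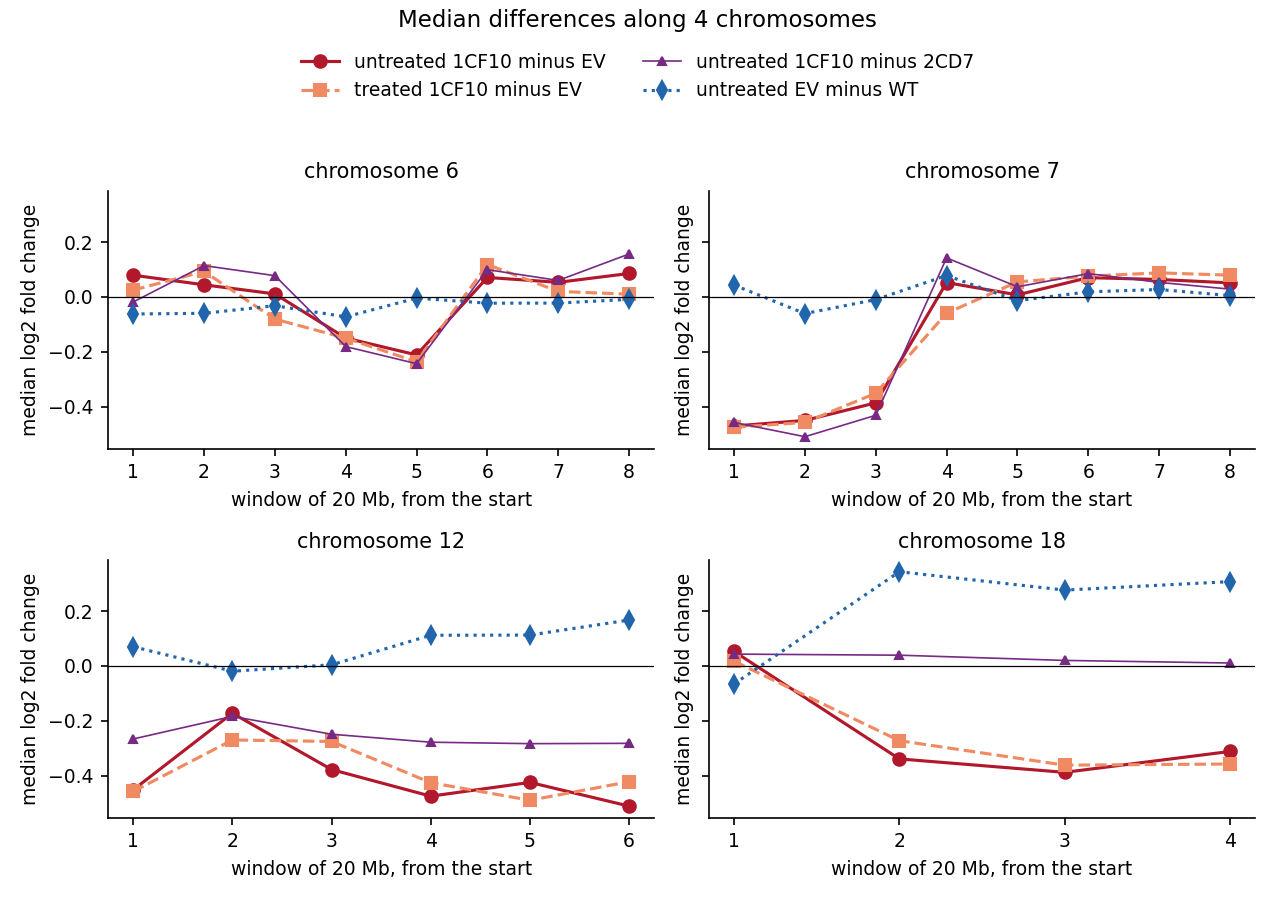
Median log2 fold change of genes with an average log2 CPM above 4 in windows of 20 Mb (x axis, number of the window from the start of the chromosome) along chromosomes 6, 7, 12 and 18, for untreated 1CF10 minus EV (red circles), treated 1CF10 minus EV (orange squares), untreated 1CF10 minus 2CD7 (purple triangles) and untreated EV minus WT (blue diamonds). The step of 1CF10 ends after the third window of chromosome 7, spans windows 4 and 5 of chromosome 6 and all of chromosome 12, and on chromosome 18 EV minus WT runs opposite to it from window 2 on.

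The treated libraries of the same lines gave a second measurement that shares no library with the untreated one. To keep the response to interferon beta apart, the 596 genes called in EV treated minus EV untreated (5.09% of tested genes) were set aside. Of the 386 other genes that were higher in untreated 1CF10, 204 were called higher in treated 1CF10 against treated EV (52.8%, and 26.3% of the 777 called there), and of 698 that were lower, 476 were called lower there (68.2%, and 50.4% of 945). None of these was called in the opposite direction, in a selection that used the EV libraries of both comparisons. With no gene set aside, 212 of the 421 were called higher and 549 of the 791 lower in treated cells, and 6 that were higher in untreated 1CF10 were called lower there. Of the 1084 genes together, 1042 had the same sign (96.1%). In treated cells 18.9% of tested genes were called, 7.34% higher and 11.6% lower. The difference between treated and untreated cells in the step of 1CF10 minus EV was called for 2.8% of tested genes. Fam149a, Glipr2 and Fgfr1 gave -5.45 ± 0.68, 3.34 ± 0.42 and 3.12 ± 0.28 there, Col1a1 1.98 ± 0.13 and Timp3 2.13 ± 0.17, with an adjusted p of at most 4.07e-09 in these 5 genes. Mvd was not called in treated cells (log2 fold change -0.44 ± 0.17, adjusted p = 0.0646), nor were Ccl7 (log2 fold change 0.30 ± 0.20, adjusted p = 0.342) and Ankrd1 (log2 fold change -0.05 ± 0.11, adjusted p = 0.803). Leaving out 1 treated library at a time, genes called higher in treated cells numbered 565 to 764, the lowest without the treated EV replicate 3, against 859 with all. Untreated 2CD7 and WT also share no library with 1CF10 and EV, and between them 3.51% of tested genes were called. In 2CD7 minus WT, 508 of the 1084 genes had the same sign (46.9%). Of the genes that were higher in 1CF10, 16 were called the same way there and 31 the opposite way. Of those that were lower, 27 were called the same way and 17 the opposite way. With no gene set aside, 20 of the 421 were called the same way in 2CD7 minus WT and 35 the opposite way. Of the 791, 53 were called the same way and 22 the opposite way. Over these 1084 genes, which are not independent of each other, the log2 fold changes correlated with r = 0.90 in treated cells and r = -0.02 in 2CD7 minus WT.

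Tested against the mean of the other 3 untreated lines, 834 genes were higher in 1CF10 (7.13%) and 1085 lower (9.28%). The number higher ranged from 536, without 1CF10 replicate 2, to 822 with 1 library left out. For EV against the mean of its other 3 lines 771 genes were higher (6.59%) and 579 lower (4.95%). All 3 libraries of 1CF10 lay outside the 9 other untreated libraries for 184 of the 421 genes that were higher and 407 of the 791 that were lower, and all 3 of EV did so for 135 and 200. Genes with full values above that were above every other line in 1CF10 included Glipr2, Rnf144b, Fgfr1, Timp3, Col1a1, Epha2, Fstl1, Edn1, Ankrd1, Spry1, Pmp22 and Xirp2. Those below every other line included Fam149a, Smarca1, Pimreg, Lgals7, Agrn, Mvd, Nsdhl, Hmgcs1, Trf and Krt8. Genes for which EV was the line outside the others, among them Prodh, Il2rg, Arhgdib, Ccl2, Chac1, Gdf6, Cdkn1a, Krt19 and Mgp, were not outside in 1CF10.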

How the data were processed

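RNA of 24 libraries (8 groups of 3) was measured by 3′ multiplexed sequencing, with a sample index and a UMI added at poly(A) priming, per the labels' protocols. The authors deposited 1 table of UMI counts per Ensembl gene, not normalized. The submitters' processing notes name cutadapt 3.0, R 3.6.2 and 4.1.2, edgeR 3.36.0 and limma 3.50.0, with no word on what each did, and GRCm38 and mm10 as builds. The aligner and the strand setting are not given in the sources used here, so reads of overlapping or antisense genes may be mixed.

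The counts were tested as deposited with edgeR 4.0.16 in R 4.3.3 (quasi-likelihood F test, robust, TMM scaling, filterByExpr set to at least 10 counts, and 15 in total). All 24 libraries and 8 group means were fitted together, and p-values were adjusted by the Benjamini-Hochberg method over the 11698 tested genes. Genes below an adjusted p of 0.05 are called. SE is the log2 fold change divided by the square root of F. The test was tested on simulated data with 200 changed genes. Library totals and the floor of 3 UMIs limit precision at low levels, and exact 95% intervals and floors cover counting error only.

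Gene positions come from GENCODE M21 (GRCm38), which matched 24577 of 24614 genes, and promoter sequences from RefSeq (GRCm38.p6). Medians along chromosomes use genes with an average log2 CPM above 4. The genes and gene lists were chosen with earlier results of these data known. Named genes were Ifnar1, Ifnar2, Trp53 and Brca2, and called genes with no overlap between the lines, skipping predicted genes and pseudogenes. Of these, each direction gave the 15 largest changes at a mean CPM of at least 3, the 6 largest differences in CPM and up to 8 genes at 0 UMIs in a line. Each list gave up to 4 called members and any exception to its count. Some genes that met the rule are not reported here. Other genes are named to describe a list or a chromosome, after their values were seen.

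The alternatives tried were RLE size factors, DESeq2 1.42.0, limma-voom 3.58.1, no filter or a minimum count of 30, the replicate block, libraries thinned to the smallest total, a fit of the compared groups alone and each library left out. Leaving out 5 chromosomes was added after seeing the data. The treated libraries of 2CD7 and WT entered only the shared fit.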

Additional observations from a re-analysis of the deposited data

Results flagged for a closer look

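The step of 1CF10 minus EV was not the same in treated and untreated cells for 327 genes by the interaction term of edgeR's fit (adjusted p below 0.05). The step was lower in treated cells for 264 of them and higher for 63. Of the genes that the naming rule gave and that are reported here, 18 were among them, 17 lower and 1 higher. In the treated comparison both lines had been given interferon beta. The log2 difference between the steps was -4.46 for Irgm2, -4.42 for Gvin1, -2.99 for Ifi204, -2.92 for Apol9a, -2.88 for Ifih1 and -2.84 for Stat2. It was -1.91 for Irf9, -1.83 for Ddx58, -1.62 for Lgals9, -0.86 for H2-D1 and -0.80 for B2m. In the chemokines Ccl2 (-1.77) and Ccl7 (-1.71), which were higher in untreated 1CF10 than in untreated EV, the difference was of the same sign. Smaller ones were found for Ccn2 (-0.75), Hes1 (-0.60), Id3 (-0.59) and Ccnd2 (-0.58). Numb was the exception, at 1.74. In the untreated comparison Ifi204 lost its call without 1CF10 replicate 1 or 2 or any of the EV libraries (adjusted p up to 0.173). Hes1 lost its call there without 1CF10 replicate 1 or 3 or EV replicate 1 or 3 (adjusted p up to 0.264). Ccn2 lost its call there without 1CF10 replicate 2 or 3 or EV replicate 1 (adjusted p up to 0.103).

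The clones labelled with the same knockout differed from each other in 1568 genes while untreated. In 1CF10 666 genes were higher than in 2CD7 and 902 were lower, by the same test. Each group holds 3 libraries, so no single library was tested for its distance from the others.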

How the results depend on the processing

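For the untreated comparison, RLE size factors, limma-voom, both other filters, thinning and a fit of the 2 lines alone gave 318 to 499 genes higher and 660 to 825 lower, against 421 and 791. DESeq2 called 279 higher and 593 lower, and 564 higher in treated cells (859 in the main fit), and the cause was not tested. Genes that were lower made up 65.3% of calls, 58.5% with no filter on low counts and 64.6% to 68.6% elsewhere. With 1 library left out, 281 to 341 genes were higher and 613 to 654 lower. The same gave 565 to 764 higher in treated cells (lowest without EV_IFN replicate 3) and 536 to 822 higher against the mean of the other 3 lines (lowest without 1CF10_UT replicate 2). Those fits hold fewer samples. Chromosomes 6, 7, 12, 18 and 19 were picked from these data, among the nuclear chromosomes, for having over 10% of their expressed genes lower. Away from them 303 genes were lower.

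Same-numbered 1CF10 and EV libraries deviated together with correlations of 0.071, 0.149 and 0.1004, and the number marks no shared culture in the labels. With the replicate block 435 genes were higher and 793 lower, 875 and 1382 in treated cells, and 856 and 1097 against the mean of the other 3 lines.

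Restricting the chromosome medians to an average log2 CPM above 6 gave -0.0144 on chromosome 6 (-0.00197 above 4), -0.0395 on chromosome 7 (-0.0563), -0.452 on chromosome 12 (-0.425), -0.295 on chromosome 18 (-0.270) and -0.1195 on chromosome 19 (-0.122). Above 2, chromosome 7 was at -0.0931, and with RLE chromosome 19 was at -0.1197. Those medians rest on other genes. Of the 152 named genes 148 were called in the main fit. Of these, 98 were called in every alternative that tested them, and all 148 kept their direction there. Some low genes were filtered out in some alternatives. DESeq2 called 4 of 7 matrix protease genes, 1 of 3 Notch genes, 4 of 8 immediate early genes, 5 of 8 cell cycle genes and 0 of 2 homologous recombination genes. Depth limits the genes of a few UMIs, and the 3 libraries of a group limit all calls.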
